A study of Mus musculus with 6 samples.

Results

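The genes described here were 10 genes that mark or specify the brown adipocyte: Prdm16, Ebf1, Ebf2, Ebf3, Zic1, Lhx8, Tbx15, Zfp516, Ehmt1 and Otop1. A probe set, the group of short probes that reports 1 transcript on the array, was a member when the platform annotation gave it 1 of these symbols and no other. This rule found 24 of the 45037 probe sets on the array other than controls, and each of the 10 genes, of 18193 with a probe set of their own, had at least 1. RNA came from brown adipose tissue (BAT) of 3 mice without KRAP (KO) and 3 wild-type animals (WT), 32 weeks old and fed normal chow, which formed 3 littermate pairs with 1 array for each animal. KRAP is an actin-associated protein, now named Itprid2. The KO allele lacked part of the coding exons, which a neomycin resistance cassette replaced in every tissue, and the line came from targeted embryonic stem cells and had been backcrossed to C57BL6/J.

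Brown adipocytes burn fuel to make heat, and a small set of DNA-binding proteins and chromatin regulators decides that a precursor becomes a brown rather than a white fat cell or a muscle cell. PRDM16 is the best known of them and acts together with the histone methyltransferase EHMT1, while EBF2 opens chromatin at brown fat genes and marks committed brown precursors. ZIC1, LHX8 and TBX15 are developmental regulators whose transcripts label fat by its position in the body, and ZFP516 is a cold-induced activator of the Ucp1 gene. OTOP1 is a proton channel and not a transcription factor, and its transcript serves as a marker of brown fat.

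The promoter windows of these genes are shown because they differ widely in base composition. RefSeq windows on GRCm38.p6, from 250 bases before to 50 bases after the annotated start, were at hand for 7 of the 10 genes, with 8 windows in all since Ebf1 had 2. Shown are the windows of Otop1, which had the largest difference among the bright members, of Prdm16, of Ebf3, which was the richest in G and C, and of Lhx8, which was the poorest in CG steps. Capitals mark the GC box GGGCGG, searched on both strands.
Otop1, chr5:38277154-38277453, plus strand: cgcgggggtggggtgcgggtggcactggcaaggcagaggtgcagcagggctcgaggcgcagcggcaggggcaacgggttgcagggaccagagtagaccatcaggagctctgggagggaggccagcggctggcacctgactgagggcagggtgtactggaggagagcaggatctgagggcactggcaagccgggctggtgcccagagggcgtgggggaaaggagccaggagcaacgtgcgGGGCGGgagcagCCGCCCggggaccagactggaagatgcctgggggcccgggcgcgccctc
Prdm16, chr4:154636824-154637123, minus strand: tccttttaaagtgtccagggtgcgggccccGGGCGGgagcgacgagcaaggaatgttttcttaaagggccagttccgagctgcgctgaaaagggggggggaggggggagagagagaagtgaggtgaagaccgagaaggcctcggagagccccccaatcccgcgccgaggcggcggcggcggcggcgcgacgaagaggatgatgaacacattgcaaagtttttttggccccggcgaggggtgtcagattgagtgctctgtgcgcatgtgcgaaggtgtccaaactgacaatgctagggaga
Ebf3, chr7:137314396-137314695, minus strand: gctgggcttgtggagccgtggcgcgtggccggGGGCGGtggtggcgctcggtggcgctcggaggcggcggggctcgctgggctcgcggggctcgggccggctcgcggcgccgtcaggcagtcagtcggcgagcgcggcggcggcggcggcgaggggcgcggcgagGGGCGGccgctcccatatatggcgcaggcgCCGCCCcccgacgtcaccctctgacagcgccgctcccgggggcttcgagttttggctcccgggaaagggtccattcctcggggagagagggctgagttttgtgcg
Lhx8, chr3:154330511-154330810, minus strand: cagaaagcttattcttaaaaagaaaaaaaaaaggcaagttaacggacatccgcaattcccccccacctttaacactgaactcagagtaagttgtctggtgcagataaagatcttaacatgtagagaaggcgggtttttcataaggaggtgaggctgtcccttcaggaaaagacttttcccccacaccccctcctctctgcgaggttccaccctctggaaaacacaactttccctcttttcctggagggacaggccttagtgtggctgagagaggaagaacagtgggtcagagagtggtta

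Of the 8 windows, 6 lay above the median G and C content of 52.7% over the 32851 windows of the same length. Ebf3 had 77.0% and 46 CG steps, whereas Lhx8 had 47.0% and 4 and Otop1 had 71.7% and 18. GC boxes were found in 5 of the 8 windows, against 35.7% of all windows. The core motif of EBF proteins, CCCNNGGG, was found in 1 of the 8, that of Ebf3 itself, 21 to 14 bases before its start and apart from its GC boxes, against 13.7% of all windows. The nuclear receptor half-site AGGTCA occurred in 1 window, that of Ehmt1 (16.3% of all), and the cAMP response element TGACGTCA and the TATA box TATAAA in 0 (1.79% and 13.6% of all).

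Each signal is given relative to the median signal of the array it was read on, a scale on which probe sets of different genes cannot be ranked against each other. Those medians ranged from 16.5 to 20.4 intensity units. Of the 24 probe sets, 21 had a mean signal above 1 and were tested. The tissue label held for all 6 arrays, since the 6 markers of brown adipocytes listed here (Ucp1, Cidea, Elovl3, Cox7a1, Cox8b and Dio2) read above the array median in each, with a summed signal of 1839 to 2480 in KO and 1839 to 2464 in WT. The KRAP probe set read 35.1 to 47.0 in KO and 42.2 to 56.6 in WT, and the sources used here do not say whether it lies within the deletion. One array, WT 2, differed from the other 5 in its control probes: the 3′ actin probes read 3.80 times the 5′ ones (1.91 to 2.58 times on the other arrays), and 18S ribosomal RNA read 1731 intensity units (112.4 to 214.9 elsewhere). Values without pair 2, or the ratios of the 3 pairs, are therefore given where a result rests on that pair. Fewer cells of a type and less RNA per cell cannot be told apart in such tissue samples.

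No regulator of brown identity was called different between KRAP-deficient and wild-type BAT. When limma was run with littermates as a block, 0 of the 21 tested probe sets passed an adjusted p of 0.05, and over all 22356 tested probe sets 0% passed in either direction. The differences ran from -0.84 for Tbx15 to 0.49 for a Prdm16 probe set on the log2 scale (KO minus WT), and 19 of 21 were smaller than 0.5. An unadjusted p under 0.05 was met by 1 of the 21, that of Otop1, which was lower in KO, against 8.55% of all tested probe sets, or 3.41% higher and 5.14% lower. The 95% confidence interval lay within a 2-fold change either way for 17 of the 21 probe sets, against 79.7% of all, and within 1.5-fold for 6, against 21.7%. For the other 15 probe sets a 1.5-fold change in at least 1 direction lay within the interval.

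**Figure D1:**
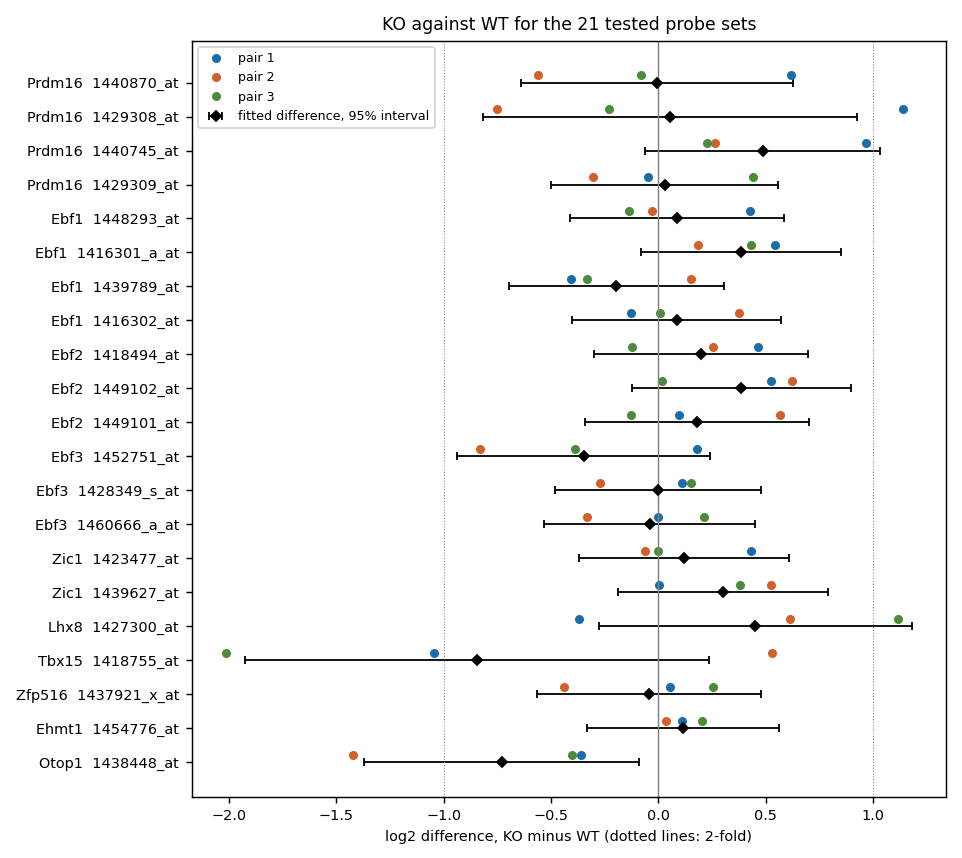
Log2 differences between KO and WT (horizontal axis) for the 21 tested probe sets, as limma fits with 95% confidence intervals (black diamonds and bars), with the difference of each littermate pair as a coloured point above them. The interval excluded 0 for Otop1 alone, at -0.73, and the 3 pairs lay on both sides of 0 for 15 of the 21 probe sets.

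By the fold rule of the study, a 1.5-fold change the same way in all 3 pairs, 0 of the 21 probe sets were higher (0.555% of all tested) and 0 were lower (0.819%). Here the rule was used on floored signals of the tested probe sets alone, limits that the study does not describe. Simple direction gave 5 probe sets higher in KO in all 3 pairs (12.4% of all) and 1 lower (18.4%). The 5 belonged to Prdm16, Ebf1, Ebf2, Zic1 and Ehmt1, and the 1 was that of Otop1. With signals as deposited, or after quantile normalization, 4 were higher in all 3 pairs, without that of Ebf2, against 14.9% and 17.0% of all, and Otop1 alone was lower. The KO and WT arrays overlapped on each of the 21 probe sets, where 4.59% of all had every KO array above every WT array and 7.16% the reverse.

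Prdm16, which lies at chr4:154316122-154637360, was measured by 4 probe sets that did not move together. The brightest, 1440870_at, read 15.9, 12.9 and 12.6 in the KO animals of pairs 1, 2 and 3, and 10.4, 19.0 and 13.3 in their WT littermates. The KO animal was thus the higher one in pair 1 and the lower one in pairs 2 and 3, with a fitted change of -0.0065 on the log2 scale (95% interval from -0.64 to 0.63, adjusted p = 0.999 by limma). The next, 1429308_at, showed the same order within pairs, at 7.61, 3.97 and 3.91 in KO and 3.46, 6.68 and 4.58 in WT, and KO over WT ratios of 2.20, 0.595 and 0.854. The fitted difference was 0.05 (adjusted p = 0.984) with all pairs, and leaving out pair 1 or pair 2 gave -0.49 or 0.46. The WT animals alone spanned a ratio of 1.83 and 1.93 from lowest to highest on these 2 probe sets, with WT 1 lowest and WT 2 highest on both.

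The other Prdm16 probe sets were dim. For 1440745_at the signals were 2.48, 2.67 and 1.96 in KO and 1.27, 2.22 and 1.68 in WT, higher in KO in 3 of 3 pairs with ratios of 1.95, 1.20 and 1.17. Its log2 difference of 0.49 was the highest of the 21 (interval -0.06 to 1.03, adjusted p = 0.633) and was 0.25 without pair 1. The dimmest, 1429309_at, which was designed from the same transcript record as 1429308_at, read 1.60, 1.02 and 1.66 in KO and 1.65, 1.26 and 1.22 in WT (log2 difference 0.03, adjusted p = 0.986). The positions of these 4 probe sets within the gene were not examined.

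Ehmt1, the methyltransferase partner of PRDM16, at chr2:24790769-24919643, had the smallest spread left after genotype and pair among the 21 tested probe sets. It read 15.9, 16.7 and 21.8 in KO and 14.8, 16.3 and 19.0 in WT. This residual spread of its log2 signal was at the 4.19th percentile of all tested probe sets. The KO animal was the higher one in 3 of 3 pairs, but by ratios of only 1.08, 1.02 and 1.15, a log2 difference of 0.11 (interval -0.33 to 0.56, adjusted p = 0.910).

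**Figure D2:**
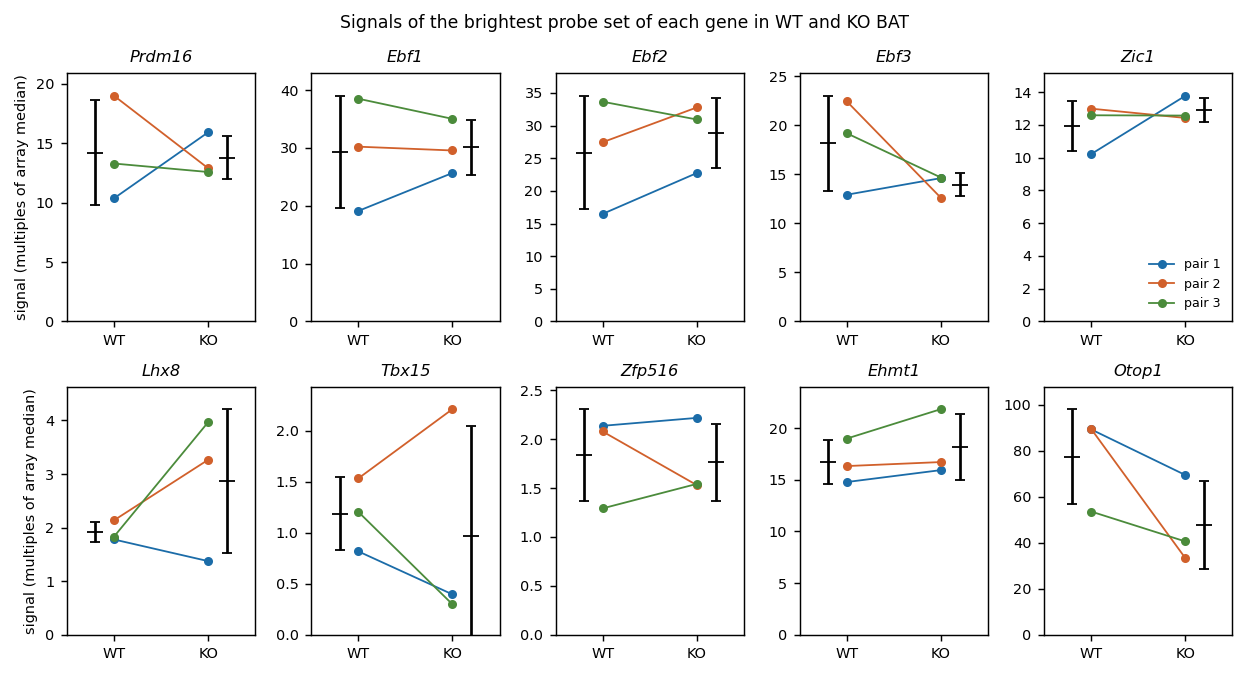
Signals of the brightest probe set of each of the 10 genes, as multiples of the array median on linear axes that start at 0. Coloured points are single animals with lines joining littermates, and black bars are group means with SD (n = 3), drawn only down to 0 for Tbx15. Otop1 fell from WT to KO along all 3 lines, at 89.3 to 69.4, 89.5 to 33.3 and 53.6 to 40.6, while among the other 9 genes only Ehmt1 had 3 lines of 1 direction.

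The early B cell factors are named for the B lymphocyte, where EBF1 is needed, but also act in fat cell precursors. Markers of B cells were near the bottom of the scale, with 1 of 7 named markers (Blnk) above the array median on average and summed signals of 4.97 to 6.50 in KO and 5.18 to 8.55 in WT. Ebf1 lies at chr11:44618100-45008096 and Ebf2 at chr14:67233292-67430952. On their brightest probe sets, the range between pair means was larger than the genotype difference for both. Ebf1 (1448293_at) read 25.7, 29.6 and 35.0 in KO and 19.1, 30.2 and 38.5 in WT, and Ebf2 (1418494_at) read 22.7, 32.8 and 30.9 in KO and 16.5, 27.4 and 33.7 in WT. Pair 1 was thus the lowest pair for both genes, and the highest pair mean was 1.66 and 1.67 times the lowest. On the log2 scale these ranges were 0.73 and 0.74, beside genotype differences of 0.09 and 0.20 (adjusted p = 0.943 and 0.838 by limma). A range between pair means that exceeded the genotype difference was found for 18 of the 21 probe sets (85.7%), and for 76.9% of all tested.

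The further probe sets of Ebf1 went both ways. That for alternative transcripts, 1416301_a_at, was higher in KO in 3 of 3 pairs, at 13.3, 15.5 and 21.5 in KO and 9.15, 13.6 and 15.9 in WT (log2 difference 0.39, interval -0.08 to 0.85, adjusted p = 0.643). By contrast, 1439789_at read 8.09, 8.39 and 10.2 in KO and 10.7, 7.55 and 12.8 in WT, lower in KO in 2 of 3 pairs (log2 difference -0.20, adjusted p = 0.842). Between them lay 1416302_at, at 6.46, 7.93 and 9.54 in KO and 7.07, 6.11 and 9.49 in WT (log2 difference 0.08, adjusted p = 0.942). A further probe set, 1457441_at, was under the limit for testing, at 1.05, 0.699 and 1.49 in KO and 0.802, 0.763 and 0.498 in WT. The Ebf1 differences therefore spanned 0.58 on the log2 scale within 1 gene, although 3 of the 5 probe sets were designed from the same transcript record.

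Ebf2 was the one gene with 3 tested probe sets that all gave a positive difference. For 1449102_at the signals were 20.1, 22.4 and 23.0 in KO and 14.0, 14.5 and 22.7 in WT, with ratios of 1.44, 1.54 and 1.01 (log2 difference 0.39, interval -0.12 to 0.90, adjusted p = 0.668). The KO animals lay close together here, and the WT animals of pairs 1 and 2 lay below them. The same was seen for 1449101_at, at 12.4, 11.8 and 12.3 in KO and 11.6, 7.97 and 13.5 in WT, where the difference of 0.18 (adjusted p = 0.867) was -0.015 without pair 2. Markers of preadipocytes and fibroblasts, a population that includes Ebf2-positive precursors, had a summed signal of 258.4 to 310.2 in KO and 223.7 to 246.0 in WT. Of these 10 markers, 5 were higher and 1 lower in KO in all 3 pairs, against 10.9% and 19.7% of all genes tested, and none was below the floor on every array. Those higher were Dpp4, Pi16, Col1a1, Col3a1 and Lum, and the lower one was Pdgfrb. Pdgfra, Dlk1, Cd34 and Dcn went both ways. The sum was mostly that of Dcn and Col3a1, with mean signals of 102.1 and 75.4. The part of such cells in the Ebf2 values was not tested.

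Ebf3, at chr7:137193671-137322805, had 3 negative differences, of which 1 was larger than 0.05. On 1452751_at the signals were 14.6, 12.6 and 14.7 in KO and 12.9, 22.4 and 19.2 in WT. WT 2 was the highest of the 6 arrays, and the log2 difference of -0.35 (interval -0.94 to 0.24, adjusted p = 0.737) was -0.10 without pair 2 and -0.61 without pair 1. The next, 1428349_s_at, read 14.5, 11.04 and 12.2 in KO and 13.4, 13.3 and 10.98 in WT, a difference of -0.0024 (adjusted p = 0.999). The dimmest, 1460666_a_at, read 10.4, 6.70 and 7.95 in KO and 10.5, 8.45 and 6.86 in WT, a difference of -0.041 (adjusted p = 0.976). With signals as deposited both of these differences became 0.059 and 0.020, and after quantile normalization 0.063 and 0.038. The suffix s_at marks probes shared by several transcripts, so 1428349_s_at may not read Ebf3 alone.

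Zic1, a zinc finger gene at chr9:91358058-91365768 whose transcript separates brown fat between the shoulder blades from white depots, was measured by 2 probe sets. The brighter, 1423477_at, read 13.8, 12.4 and 12.6 in KO and 10.2, 13.0 and 12.6 in WT, with 5 of the 6 animals between 12.4 and 13.8 and WT 1 below them. The means were 12.9 in KO and 11.9 in WT, a log2 difference of 0.12 (interval -0.37 to 0.61, adjusted p = 0.914). The dimmer 1439627_at read 1.28, 2.51 and 2.14 in KO and 1.27, 1.74 and 1.64 in WT, with a pair 1 ratio of 1.001 and a log2 difference of 0.30 (adjusted p = 0.721).

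Lhx8, a LIM homeobox gene at chr3:154306288-154330560 and likewise a label of classical brown fat, was dim and varied in the KO animals. Its 1 probe set, 1427300_at, read 1.37, 3.27 and 3.97 in KO against 1.78, 2.14 and 1.83 in WT. The KO animals thus spanned a ratio of 2.89 and the WT animals 1.20, with KO 1 below and KO 2 and KO 3 above all WT animals. The log2 difference of 0.45 (interval -0.28 to 1.18, adjusted p = 0.719) was 0.86 without pair 1 and 0.12 without pair 3. In KO 3, the array with the highest Lhx8 signal, the 6 named hepatocyte markers summed to 56.7 against 2.90 to 4.07 in the other 5 arrays. Their part in the Lhx8 value was not tested.

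Tbx15, a T-box gene at chr3:99240348-99354260 that is expressed in several fat depots and in muscle, showed the widest spread. On 1418755_at the signals were 0.396, 2.21 and 0.298 in KO and 0.818, 1.53 and 1.21 in WT. KO 2 was the highest and KO 3 and KO 1 the lowest of the 6 arrays, and the ratios were 0.484, 1.44 and 0.247. The log2 difference of -0.84 had an interval of -1.92 to 0.24 (adjusted p = 0.660), and it was -1.53 without pair 2 and -0.26 without pair 3. This probe set was near the lower limit, with a mean of 1.08 where testing needed a mean above 1. KO 1 and KO 3 were close to the floor of 0.25. With 1 added to each signal in place of the floor, the difference was -0.27. A second probe set, 1422195_s_at, read 0.0339, 0.0557 and 0.0917 in KO and 0.0548, 0.0410 and 0.0529 in WT, all below the floor of 0.25, and was not tested.

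Skeletal muscle markers also separated these arrays. The 11 markers, of which 10 had a mean above the array median, summed to 45.2, 790.3 and 25.6 in the KO animals of pairs 1, 2 and 3, and their WT littermates had sums of 103.0, 68.6 and 316.0. KO 2 was the highest and KO 3 and KO 1 the lowest in this sum, as for Tbx15, whereas WT 2 was the second highest array for Tbx15 and the fourth for the muscle markers. The part of muscle in the Tbx15 values was not tested.

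**Figure D3:**
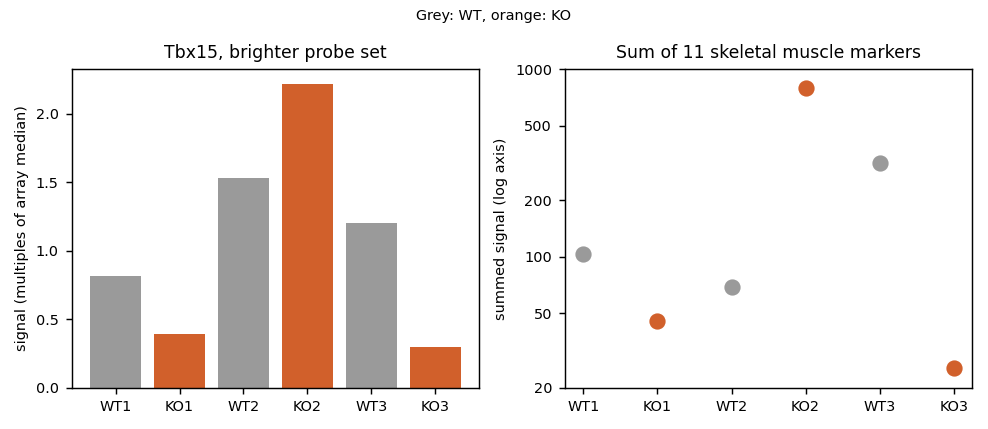
Left, signal of the brighter Tbx15 probe set in each of the 6 arrays, as multiples of the array median on an axis from 0. Right, the summed signal of the 11 skeletal muscle markers in the same arrays on a log axis. KO 2 was highest and KO 3 lowest in both, at 2.21 and 0.298 for Tbx15 and at 790.3 and 25.6 for the marker sum.

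Zfp516, the cold-induced zinc finger gene, was close to the lower limit. Its brighter probe set, 1437921_x_at, whose suffix marks probes that may bind other transcripts too, read 2.22, 1.53 and 1.54 in KO and 2.14, 2.08 and 1.29 in WT (log2 difference -0.04, interval -0.57 to 0.48, adjusted p = 0.976). The other, 1455944_at, read 0.538, 0.558 and 0.390 in KO and 0.306, 0.455 and 0.654 in WT and was not tested.

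Otop1, the proton channel gene at chr5:38277404-38304217, was the one member whose KO animal was lower in each pair. It read 69.4, 33.3 and 40.6 in KO and 89.3, 89.5 and 53.6 in WT, with means of 47.8 ± 19.1 and 77.4 ± 20.7 (SD, n = 3). The groups overlapped, since KO 1 lay above WT 3. The ratios were 0.778, 0.372 and 0.757, a 1.66-fold lower signal and a log2 difference of -0.73 (interval -1.37 to -0.09), which placed it among the lowest 3.08% of tested probe sets. It did not pass limma's adjusted test (adjusted p = 0.538), and adjusted p ran from 0.0777 to 0.863 over 11 alternatives. Without pair 2, which holds the WT array with the actin ratio of 3.80, the difference was -0.38, and without pairs 1 and 3 it was -0.91 and -0.89.

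The partners of these factors were examined next, over genes known to bind PRDM16, to switch brown adipogenesis on or off, or to carry BMP signals in it. Of 41 such genes named on the array 36 were tested, and 6 were higher and 5 lower in all 3 pairs (10.9% and 19.7% of all genes), with a median log2 difference of 0.001 against -0.07 over the 11140 genes tested. None passed limma's adjusted test, and 3 of 36 had an unadjusted p under 0.05, against 8.2% of all genes. The largest differences of 1 direction were those of Irf4, a transcription factor of the thermogenic program, at 1.78 (adjusted p = 0.278 by limma), Klf15, a Krüppel-like factor of amino acid and lipid metabolism, at 1.21 with ratios of 2.30, 3.17 and 1.70, and the chromatin reader gene Dpf3 at 0.66, with 0.15 on a further probe set. Irf4 read 42.2, 7.65 and 10.6 in KO and 13.8, 2.89 and 2.11 in WT, with ratios of 3.07, 2.65 and 5.03. The Irf4 groups overlapped, since WT 1 lay above KO 2 and KO 3. The BMP receptor gene Bmpr1a was at -0.38, and its 4 dimmer tested probe sets lay between -0.43 and -0.07. The PRDM16 corepressor genes Ctbp1 and Ctbp2 were at 0.05 and -0.36, with -0.11 on a dimmer Ctbp2 probe set. The white fat regulator Zfp423 was at -0.36, lower in 2 of 3 pairs.

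Genes that brown adipocytes express over white ones, many of them targets of PRDM16, EBF2 and PPARγ, had a median difference of 0.06 over 25 tested genes, with 4 higher and 3 lower in all 3 pairs (10.9% and 19.7% of all genes) and 0 past the adjusted test. That median was 0.005 without pair 1, 0.22 without pair 2 and -0.095 without pair 3. An unadjusted p under 0.05 was met by 5 of the 25, against 8.2% of all genes. The gene lists were chosen with earlier results of these data known, so such shares are not tests. The calcium-binding protein gene S100b was 2.82-fold lower, at 19.2 ± 3.96 in KO and 54.6 ± 15.1 in WT (SD, n = 3), and its dimmer probe set was at -1.10. Its KO over WT ratios in pairs 1, 2 and 3 were 0.460, 0.207 and 0.465. The thioesterase gene Acot11 was at -1.24, with ratios of 0.445, 0.268 and 0.637, and its dimmer probe set was at -0.49 and higher in KO in pair 3. Both S100b and Acot11 thus fell most in pair 2, which holds the array WT 2. The fatty acid transporter gene Slc27a2 was at 0.79 and the F-box gene Fbxo31 at 0.60. Adjusted p by limma was 0.403 for Acot11, 0.439 for Slc27a2 and 0.520 for Fbxo31. The deiodinase gene Dio2, also among the 5 with an unadjusted p under 0.05, was at 1.02 (adjusted p = 0.535 by limma). Its ratios were 2.28, 0.963 and 3.77. Its dimmer probe sets were at 1.22, higher in KO in 3 of 3 pairs, and at 0.37. The 95% intervals of these 5 genes excluded 0, and their adjusted p did not pass.

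Genes selective for white or beige adipocytes gave a median of -0.24 over 16 tested genes, with 3 higher and 6 lower in all 3 pairs (10.9% and 19.7% of all genes). Again 0 passed the adjusted test, and 8 of 16 had an unadjusted p under 0.05, against 8.2% of all genes. Since this list too was chosen with earlier results of these data known, that share is a description and not a test. Lep, Sncg, Mest and Nnat, which encode leptin, a synuclein, an imprinted hydrolase and the proteolipid neuronatin, had differences of -2.07, -1.87, -1.67 and -1.65. The 3 genes higher in all 3 pairs were Hoxc9, a homeobox gene, Retn, which encodes resistin, and Gpx3, a secreted glutathione peroxidase gene, at 1.21, 0.95 and 0.61 (adjusted p = 0.435, 0.413 and 0.486 by limma). Hoxc9 was dim, at 2.60, 1.81 and 1.18 in KO and 1.78, 0.424 and 0.592 in WT. Its ratios were 1.46, 4.27 and 1.99, the largest in pair 2, which holds WT 2. Among relatives of the 10 genes, 4 of 15 named on the array were tested. The PRDM16 homologue Mecom was at -0.40 and the T-box gene Tbx18 at -0.76, both lower in 3 of 3 pairs, while the zinc finger gene Zfp217 was at 0.29 and Ehmt2, the partner enzyme of EHMT1, at -0.0043. Of 12 named genes of the muscle lineage, whose precursors can also become brown adipocytes, 2 were tested, and Meox2 and Meox1 were at -0.13 and -0.32.

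**Figure D4:**
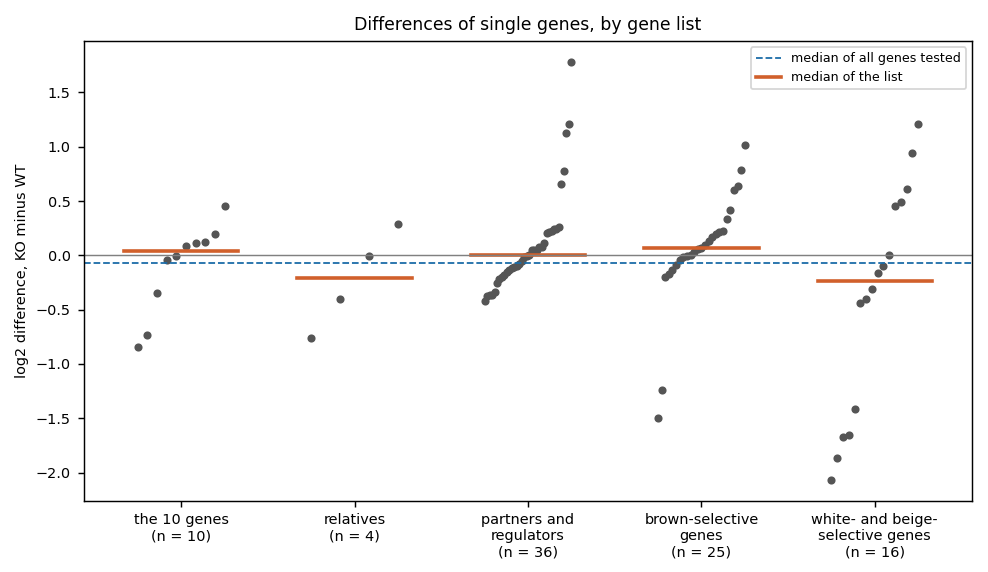
Log2 differences between KO and WT (vertical axis) of single tested genes, each by its brightest probe set, sorted by value within 5 gene lists. Orange bars are list medians, at 0.04 for the 10 genes and at -0.24 for white- and beige-selective genes, and the dashed line is the median of -0.07 over all 11140 genes tested.

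By litter, the brightest tested probe sets of the 10 genes had median differences of 0.14, -0.05 and -0.10 in pairs 1 to 3, beside -0.03, -0.24 and 0.06 over all genes tested. In pair 1, 7 of the 10 genes were higher in KO, in pair 2 it was 4 and in pair 3 it was 3. The brightest probe sets of Ehmt1 and Otop1 alone among the 10 kept 1 direction in all 3 pairs.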

How the data were processed

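BAT RNA of each mouse was read on 1 Affymetrix mouse array. The intensity values deposited by the authors were linear signals from GCOS, of a version and target scale that the sources used here do not state. Here the 64 control probe sets were set aside, signals were set relative to the array median, following the methods, with a floor of 0.25 before the log2 step. The 22356 probe sets whose mean was above 1 were tested with limma 3.58.1 in R 4.3.3, with genotype and littermate pair as terms, Benjamini-Hochberg adjustment and a threshold of 0.05. The fit was tested on simulated data with planted differences larger than any of the members. It therefore does not show whether changes of the members' size could be called. The series' design text pairs the animals as littermates by number, which is the source of the pairing, while the sample labels give only the numbers. Deviations from group means correlated by 0.446, 0.0847 and 0.160 within pairs and by -0.359 to 0.281 between them, so that 2 of the 3 littermate values lay within the range of the others. Symbols came from a platform annotation table, with 34945 probe sets carrying 1 symbol, 932 several and 9160 none. For each list gene the brightest probe set tested was used, and up to 4 genes with the largest difference of 1 direction in all pairs were named per list. Others were named after their values were seen: Ctbp1, Ctbp2, Zfp423, Ehmt2, Meox1, Hoxc9, Retn, Gpx3 and Dio2. Members and lists were chosen with earlier results of these data known. The number of arrays limits the precision. Alternatives changed the scaling, floor, pseudocount, filter, prior, pair block, probe set per gene and pairs kept.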

Additional observations from a re-analysis of the deposited data

How the results depend on the processing

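No probe set of the 10 genes passed the adjusted test in any of 11 alternatives, and 209 of 227 recomputed differences kept their direction. Changing the floor, filter, prior or pair block left the differences of these probe sets as they were. Those rows could not turn, and they are counted among the 209. Without the littermate pair as a replicate block, 0 probe sets in all passed, as with it, and no call changed. Directions turned for values near 0. With signals as deposited, Prdm16 1440870_at was at 0.055, Ebf3 1428349_s_at at 0.059 and 1460666_a_at at 0.020, and Zfp516 1437921_x_at at 0.017. With quantile normalization the first 3 were at 0.073, 0.063 and 0.038. With 1 pair left out, the ranges of those that turned were -0.32 to 0.27 for Prdm16 1440870_at, -0.49 to 0.46 for 1429308_at, -0.18 to 0.20 for 1429309_at, -0.084 to 0.20 for Ebf1 1448293_at, -0.061 to 0.19 for 1416302_at, -0.015 to 0.33 for Ebf2 1449101_at, -0.081 to 0.13 for Ebf3 1428349_s_at, -0.17 to 0.11 for 1460666_a_at, -0.033 to 0.21 for Zic1 1423477_at and -0.19 to 0.15 for Zfp516. Over all probe sets, 123 passed with a pseudocount, 40 with a mean signal above 2 and 311 when the prior was robust and followed intensity, none of them a member. With 1 pair left out 0 to 255 passed, and 359 to 417 were 1.5-fold higher and 397 to 764 lower in the pairs kept, beside 124 and 183 with all pairs. Those counts were 49 and 73 with the pseudocount and 384 and 423 without a filter, and 68 were higher with a mean above 2. The median of the relatives became -0.034 without a filter and -0.0043 above 2, and that of the white- and beige-selective genes -0.097 without a filter, -0.40 above 2 and -0.13 with plain probe sets. That of the 10 genes ran from -0.089 to 0.15 with 1 pair left out. The causes were not tested.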
